A study of Homo sapiens with 2 samples.

Results

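The 240 peaks described here lie on the short arm of human chromosome 3. They were chosen by position: a peak was taken when its summit, the base with the highest pile of DNA fragments, lay on chromosome 3 below 92.7 Mb on the hg38 build, the limit set at the centromere. They made up 0.901% of the 26642 peaks of the series. Chromosome 3 held 1619 peaks in all. The other 1379 peaks of chromosome 3 (5.18% of the series) lay on the long arm.

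The study recovered DNA with an antibody from CAL-27 cells, an established human line from a squamous cell carcinoma of the tongue, grown as spheres. The TCF4 antibody group held 1 library, whose peak list was used, and the IgG antibody group held 1 library, which was not analysed here. No genotype, dose or time was given, and both groups carried the same cells. With 1 library a group there is no test, so each value below is a measurement of this library and each interval (95%) covers counting error only.

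The name TCF4 stands for a basic helix-loop-helix (bHLH) factor that binds the E-box, a 6-base motif, and it is also an older name of TCF7L2, the factor that carries β-catenin to Wnt target genes through the TCF/LEF motif. The labels do not say which of these proteins the antibody recognises. The short arm carries CTNNB1, the gene of β-catenin itself, and many tumour suppressor genes such as VHL, BAP1 and PBRM1. Its loss, often together with gain of the long arm, is a known feature of squamous cell carcinomas in general. The number of DNA copies of each arm in these cells was not measured here, so fewer copies and fewer fragments per copy cannot be told apart in any comparison of the arms.

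The promoter sequences below carry the strongest short arm peaks whose summits fell within promoter windows of the reference table (250 bases before to 50 bases after a gene start, from RefSeq, GRCh38.p14). Each run gives the 250 bases before the start, 5′ to 3′ on the gene's strand, and capitals mark E-boxes (CANNTG) and TCF/LEF cores (CTTTGAT or CTTTGAA, on either strand).
HYAL3 and NAA80 (chr3:50299406-50299655, minus strand): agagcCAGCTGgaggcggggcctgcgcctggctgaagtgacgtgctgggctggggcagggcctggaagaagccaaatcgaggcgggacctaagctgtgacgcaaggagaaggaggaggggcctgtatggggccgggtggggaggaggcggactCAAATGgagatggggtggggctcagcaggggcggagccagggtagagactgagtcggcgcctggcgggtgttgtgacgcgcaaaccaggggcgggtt
IP6K1 (chr3:49786543-49786792, minus strand): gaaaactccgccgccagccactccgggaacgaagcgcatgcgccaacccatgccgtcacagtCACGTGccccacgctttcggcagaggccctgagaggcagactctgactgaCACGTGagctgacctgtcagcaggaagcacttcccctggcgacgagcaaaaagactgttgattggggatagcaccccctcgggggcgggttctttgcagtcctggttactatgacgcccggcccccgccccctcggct
UQCRC1 (chr3:48609647-48609896, minus strand): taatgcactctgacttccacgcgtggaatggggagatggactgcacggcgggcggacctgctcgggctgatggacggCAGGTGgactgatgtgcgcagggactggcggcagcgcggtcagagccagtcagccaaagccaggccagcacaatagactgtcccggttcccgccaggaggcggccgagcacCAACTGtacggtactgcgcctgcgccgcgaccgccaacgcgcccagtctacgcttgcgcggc
PBRM1 (chr3:52685600-52685849, minus strand): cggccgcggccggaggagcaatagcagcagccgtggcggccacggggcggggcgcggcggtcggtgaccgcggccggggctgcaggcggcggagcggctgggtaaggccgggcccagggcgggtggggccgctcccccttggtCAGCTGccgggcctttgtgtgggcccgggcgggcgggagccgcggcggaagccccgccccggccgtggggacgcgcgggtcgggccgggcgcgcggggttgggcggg
The peak in the first window held 50 fragments at its summit. Its fold was 13.8, the ratio of summit fragments to local background with 1 added to each, and its summit lay 127 bases before the start shared by HYAL3, a hyaluronidase family gene, and NAA80, an acetyltransferase for actin. IP6K1, an inositol phosphate kinase, had 24 fragments and a fold of 13.3 with the summit 107 bases before the start, and its window holds the E-box CACGTG at 188 and again at 138 bases before the start. UQCRC1, a core subunit of respiratory complex III, had 19 fragments and a fold of 10.9 with the summit 16 bases before the start. PBRM1, a subunit of the PBAF chromatin remodelling complex, shares its peak with GNL3, which starts on the other strand: 18 fragments and a fold of 10.8. The table gives PBRM1 a pair of starts, and the summit lies 165 bases before the inner start, whose window is printed, and 149 bases after the outer start, which ends the gene record. All 4 windows hold at least 1 E-box and the GC box GGGCGG, and none holds a TCF/LEF core in the printed bases.

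A further 3 promoters are shown for the motif question, and were chosen after their values were seen. BHLHE40 is the bHLH gene of the arm that has a peak at its start, and HRH1 and NKTR are the genes whose windows hold both a summit and a TCF/LEF core.
BHLHE40 (chr3:4979187-4979436, plus strand): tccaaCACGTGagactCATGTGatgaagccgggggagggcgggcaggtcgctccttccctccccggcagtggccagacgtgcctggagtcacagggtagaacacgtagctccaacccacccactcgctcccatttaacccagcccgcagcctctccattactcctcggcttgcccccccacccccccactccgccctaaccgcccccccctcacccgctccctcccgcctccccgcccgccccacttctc
HRH1 (chr3:11136988-11137237, plus strand): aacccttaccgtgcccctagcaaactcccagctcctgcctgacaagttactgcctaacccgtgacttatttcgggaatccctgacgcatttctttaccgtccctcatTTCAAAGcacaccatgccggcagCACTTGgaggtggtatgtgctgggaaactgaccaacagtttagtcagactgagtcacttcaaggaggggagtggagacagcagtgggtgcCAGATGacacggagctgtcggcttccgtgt
NKTR (chr3:42600436-42600685, plus strand): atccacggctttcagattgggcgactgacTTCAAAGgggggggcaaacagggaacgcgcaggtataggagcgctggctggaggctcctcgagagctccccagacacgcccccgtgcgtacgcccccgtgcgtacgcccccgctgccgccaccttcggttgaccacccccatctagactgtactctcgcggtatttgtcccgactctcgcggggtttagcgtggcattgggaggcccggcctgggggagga
BHLHE40, a transcriptional repressor of stress and circadian responses, had 26 fragments and a fold of 7.28 with the summit 182 bases before the start. Its window holds the E-boxes CACGTG and CATGTG, which begin at positions −245 and −234 from the start. HRH1, a histamine receptor gene, had 10 fragments and a fold of 6.16, and NKTR had 12 fragments and a fold of 8.81. In both windows the TCF/LEF core reads TTCAAAG, the other strand of CTTTGAA.

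The short arm held few peaks for its length and for its genes. It had 2.59 summits per Mb (95% exact Poisson interval 2.27 to 2.94) over 92.7 Mb, against 13.1 per Mb (12.4 to 13.8) over the 105.6 Mb of the long arm, a ratio of 0.198 (0.172 to 0.227). The arms are alike in gene content, with 499 protein-coding genes (5.38 per Mb) on the short arm and 565 (5.35 per Mb) on the long arm. Per protein-coding gene the short arm had 0.481 summits and the long arm 2.44, a ratio of 0.197 (0.171 to 0.226). Against all other sequence, which had 8.82 summits per Mb, the ratio was 0.294 (0.258 to 0.333), and per gene it was 0.353 (0.309 to 0.401). Among 25 units, made of the arms of chromosome 3 and the 23 other chromosomes whole, the short arm ranked 3 from the low end per Mb, after Y with 0.805 and X with 1.57. Chromosome 4, with 2.59 per Mb (2.37 to 2.83), could not be told from it within counting error. Per gene it ranked 2 from the low end, between X with 0.289 and chromosome 4 with 0.645.

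A protein-coding gene was counted as marked when a summit lay within 1 kb of either end of its RefSeq record. On the short arm 135 of 499 genes were marked, 27.1% (Wilson interval 23.3 to 31.1), against 283 of 565, or 50.1% (46.0 to 54.2), on the long arm, and 41.5% of all 19866 protein-coding genes. Of the other units, X had 15.3%, chromosome 4 had 19.2%, chromosome 8 had 29.8% and chromosome 18 had 29.9%. The intervals of chromosomes 8 and 18 overlap that of the short arm. With peaks of −log10 q of at least 5 alone, 90 short arm genes (18.0%) and 184 long arm genes (32.6%) were marked, against 27.4% of all genes. With summits of at least 20 fragments alone the shares marked were 3.81% on the short arm, 10.6% on the long arm and 11.3% on the other chromosomes. Gene starts alone gave 125 of 429 short arm genes (29.1%), against 44.4% of all 15843 genes with a start in the promoter table. That table has no row for the protein-coding genes of chromosome 8.

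**Figure D1:**
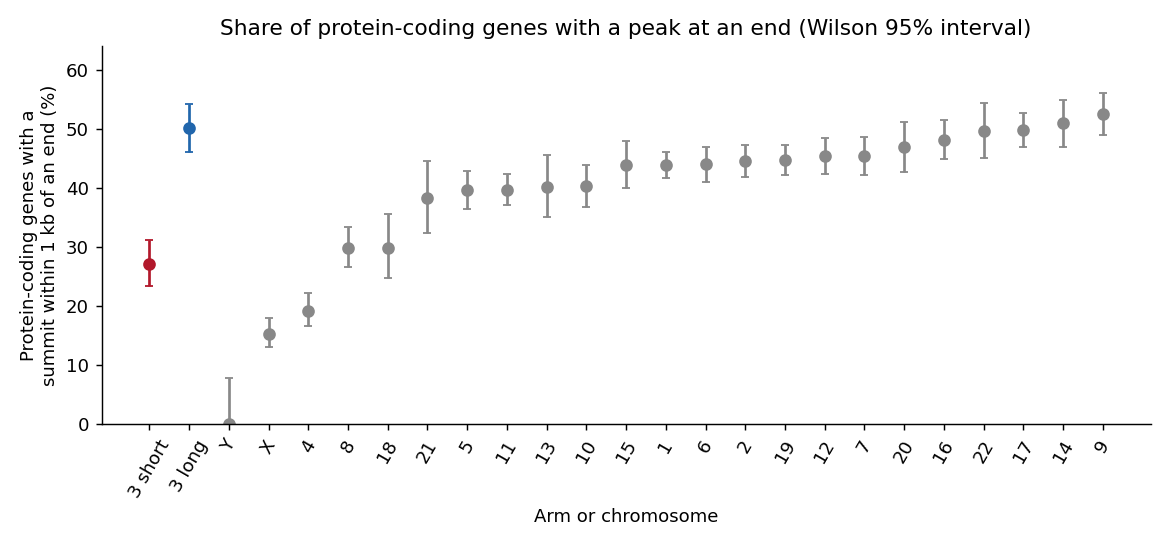
Share of protein-coding genes (%) with a summit within 1 kb of either end, for the short arm, the long arm and each other chromosome; points are shares and bars Wilson 95% intervals, counting error only. The short arm (27.1%) lies below the long arm (50.1%), and Y, X and chromosome 4 lie lower still.

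The gap between the arms was smaller at gene ends than elsewhere. At protein-coding gene ends the short arm had 120 summits (1.29 per Mb) and the long arm 304 (2.88 per Mb), a ratio of 0.450 (0.361 to 0.557). Away from those ends it also had 120, against 1075 on the long arm, a ratio of 0.127 (0.104 to 0.154). So 50% of short arm summits (43.7 to 56.3) lay at a protein-coding gene end, against 22% (19.9 to 24.3) on the long arm and 32.0% over the rest of the series. A further 19 short arm summits (7.92%) lay at the end of another gene record, 16 of them of long non-coding RNAs. Inside protein-coding genes lay 67 (27.9%), inside other genes 7 (2.92%), and between genes 27 (11.3%). On the long arm 433 summits (31.4%) lay between genes.

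Summits at starts sat close to the start. On the short arm 115 summits lay within 1 kb of a protein-coding start, at a median of 86 bp upstream, and 85 of them lay within 250 bp. Of the 115, 75 lay upstream and 40 downstream of the nearest start of any gene, alternative starts included. For 20 of them the starts of 2 or more genes lay within reach, as for the promoters between PBRM1 and GNL3 and between RHOA, a GTPase of the cytoskeleton, and TCTA. The median fold of these 20 was 6.69, against 6.30 for the summits near a single gene.

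**Figure D2:**
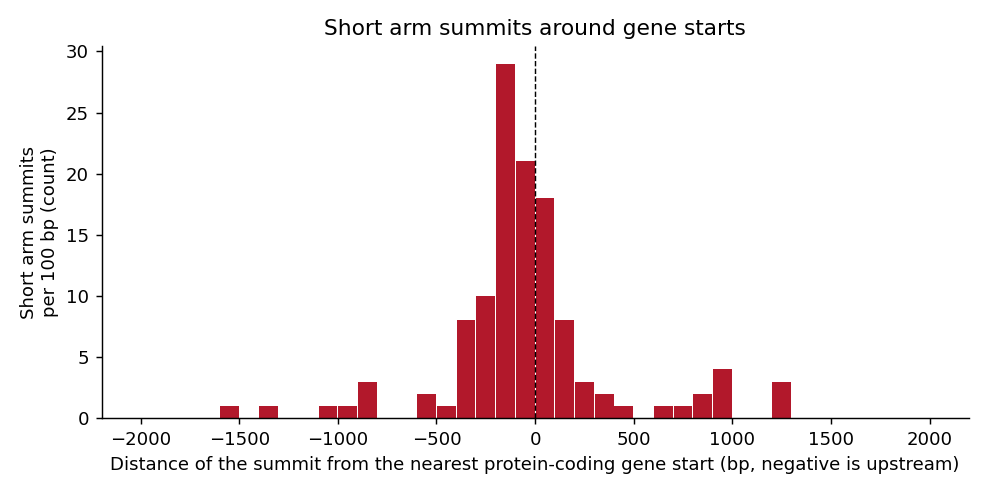
Distance of short arm summits from the nearest protein-coding gene start (bp, negative is upstream) in steps of 100 bp, with counts of summits on the vertical axis. The highest step, with 29 summits, runs from 200 to 100 bp before the start.

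The share of marked genes was also lower on the short arm among genes of like promoter GC and, outside the most crowded class, of like gene density. The promoter table covered 86.0% of short arm genes, 89.4% of long arm genes and 82.4% of genes on the other chromosomes without chromosome 8. It held none of the 707 protein-coding genes of chromosome 8, which are therefore missing from the GC values below. The median GC of the promoter window was 66.7% on the short arm, against 63.0% on the long arm and 64.7% on the others. Among promoters of 65 to 75% GC, 66 of 166 short arm genes (39.8%) were marked, against 66.5% on the long arm and 58.2% on the other chromosomes. Among those of 55 to 65% GC the shares were 22% on the short arm, 61.4% on the long arm and 43.3% elsewhere. At 75% and above they were 25% on the short arm, 51.8% on the long arm and 55% elsewhere. Below 45% GC the intervals of all 3 overlap, with 1 of 19 short arm genes marked. Genes with 10 to 19 protein-coding neighbours within 500 kb were marked in 18.8% of cases on the short arm, 46.3% on the long arm and 43.6% on the other chromosomes. In the most crowded class of the arm, 20 to 39 neighbours, 68 of 156 short arm genes (43.6%) were marked, against 18 of 24 long arm genes (75%) and 45.7% elsewhere. In that class the interval of the short arm (36.1 to 51.4) covers the share of the other chromosomes.

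**Figure D3:**
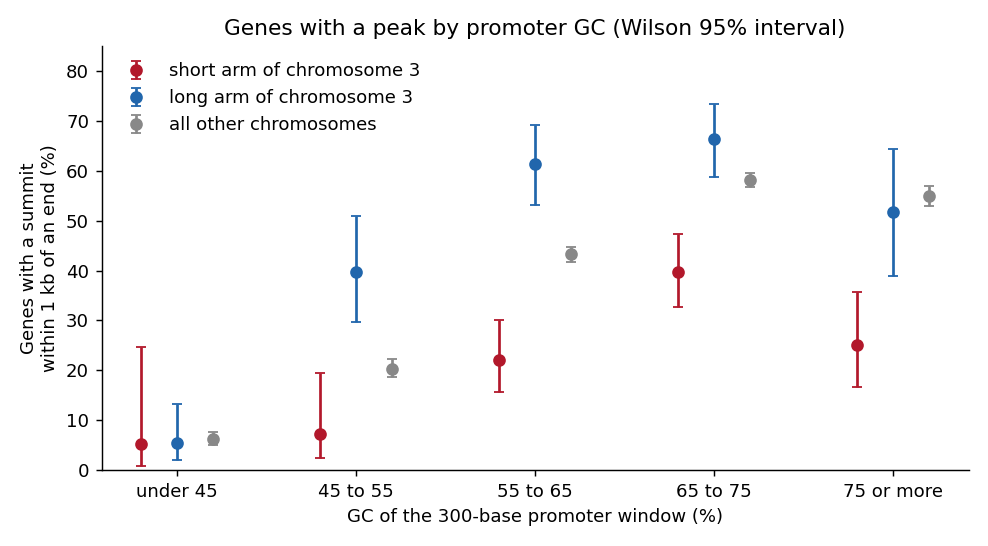
Share of protein-coding genes (%) with a summit within 1 kb of an end, by GC of the promoter window (%), for the short arm, the long arm and all other chromosomes; bars are Wilson 95% intervals. Chromosome 8 has no genes in the promoter table and is not included. From 55% GC upward the short arm points lie below both others.

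The peaks that were called on the short arm had no lower fold than those elsewhere. Their median fold was 5.81 (interval 5.42 to 6.10), against 5.03 (4.95 to 5.12) on the long arm and 5.13 on the other chromosomes. At protein-coding gene ends alone the medians were 6.13 (5.70 to 6.66) on the short arm and 6.04 (5.68 to 6.29) on the long arm, which overlap. A −log10 q of at least 5 was reached by 50.8% of short arm peaks, 33.9% of long arm peaks and 41.5% of the others. They rest on few fragments: the median summit held 9 fragments on the short arm, 8 on the long arm and 10 elsewhere, and 147 of the 240 (61.3%) held 10 or fewer. At protein-coding gene ends alone the median summit held 10 fragments (9 to 11) on the short arm. There it held 12 (11 to 13) on the long arm and 12 on the other chromosomes. The median width of all peaks was 175.5 bp on the short arm, against 167 bp and 176 bp.

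The local background, the number of fragments the caller took as usual at the place of the summit, was low on the short arm. Its median was 0.716 fragments, against 0.775 on the long arm and 0.977 on the other chromosomes. The caller never went below 0.475 fragments, and 55 short arm peaks (22.9%, 18.1 to 28.6) sat at this floor, against 9.50% of long arm peaks and 9.40% of the others. At gene ends the gap was wider: 30 of 120 short arm summits (25%) sat at the floor, against 7 of 304 (2.3%) on the long arm, with median backgrounds of 0.699 and 1.02. X and chromosome 4, which also held few peaks, had 29.4% and 22.7% of their peaks at the floor. The part of the lower background in the lower number of peaks was not tested.

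The peaks were gathered in the gene-rich middle of the arm. Between 47 and 53 Mb lay 93 summits, 38.8% of the arm's, with 147 protein-coding genes, of which 69 (46.9%) were marked, close to the 41.5% over all genes. Over the rest of the arm 18.8% of genes were marked. The fullest 1-Mb bins were 48 to 49 Mb with 27 summits, 49 to 50 Mb with 20, 50 to 51 Mb with 15 and 52 to 53 Mb with 14, followed by 47 to 48, 85 to 86 and 86 to 87 Mb with 10 each. Of 92 bins 39 (42.4%) held no summit and the median bin held 1, against 1 empty bin of 106 and a median of 11 on the long arm. The 12 short arm bins without a protein-coding gene held 2 summits, against 127 in 16 such bins on the long arm. In bins with at least 10 protein-coding genes the short arm had 0.492 summits per gene (0.418 to 0.576) over 19 bins, against 1.53 (1.37 to 1.69) over 17 bins on the long arm. Across bins, which share 1 library, summits followed protein-coding genes with Spearman's rho of 0.733 and Pearson's r of 0.798 over the 92 short arm bins, against 0.528 and 0.489 over the 106 long arm bins, given as a description.

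**Figure D4:**
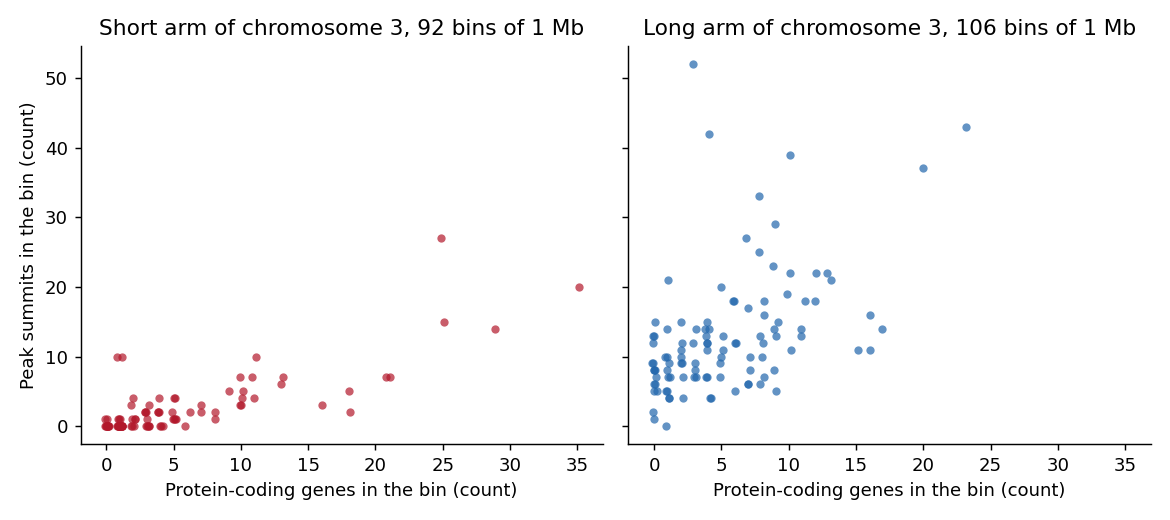
Peak summits per 1-Mb bin against protein-coding genes per bin (counts), one point a bin, for the short arm on the left and the long arm on the right; each point is shifted slightly sideways at random. On the short arm the bins rise with gene number and the 2 that stand out near 1 gene, with 10 summits each, hold CADM2 and its flank.

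Long stretches held no summit. The longest ran 6.01 Mb from ZNF717 to GBE1 and held ROBO2 and ROBO1, receptors for axon guidance cues, and the next ran 5.29 Mb from FAM107A to THOC7 with 11 protein-coding genes, FHIT and PTPRG among them. A stretch of 4.86 Mb near the start of the arm held 10 protein-coding genes. Then came 3.86 Mb from KAT2B to NKIRAS1 and 3.61 Mb from GBE1 to CADM2. The last of these holds no whole protein-coding gene, but it takes in the low-coordinate end of the CADM2 record. The longest such stretch on the long arm was 2.16 Mb. Of the 18 protein-coding genes of the arm over 500 kb long, 14 had no summit at an end or inside, among them ROBO2, FHIT, ROBO1 and CNTN4.

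CADM2, an adhesion molecule of the nervous system, held 12 of the 14 summits inside these 18 long genes. The other 2 lay 1 each in DOCK3 and TBC1D5, and DOCK3 and ULK4 had 1 summit each at an end. The CADM2 record (chr3:84958989-86074429) had none at its ends. The other 6 summits of the cluster followed within 208 kb beyond the record, so that 18 summits lay between 85373519 and 86282471, 43.5 kb apart at the median. Their folds ran from 3.46 to 7.01 with a median of 4.60, and their fragments from 5 to 12 with a median of 7.5. Their median local background was 0.778 fragments, and 1 of the 18 sat at the floor. All were low peaks, and 2 of them reached a −log10 q of 5.

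**Figure D5:**
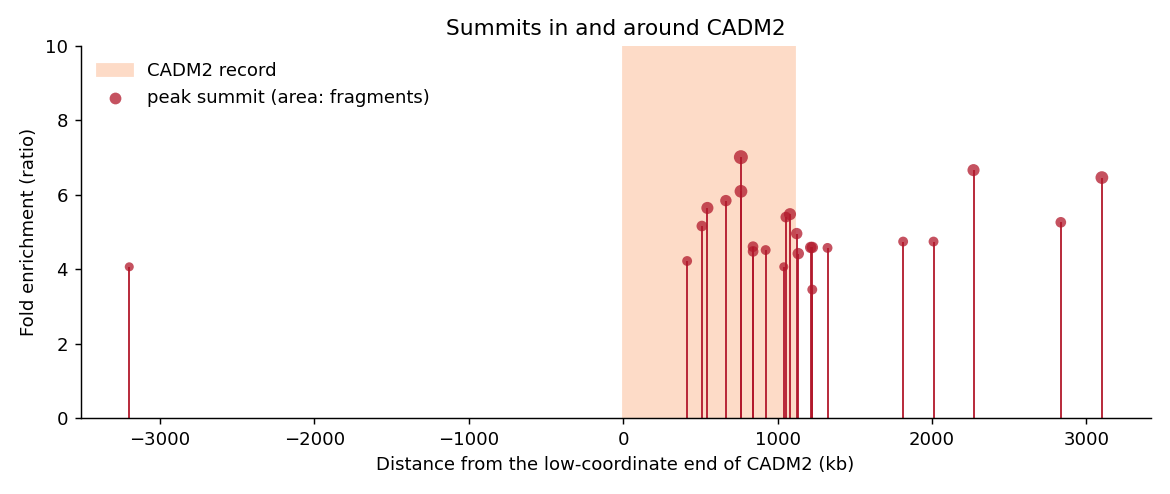
Summits in and around CADM2 by distance from the low-coordinate end of its record (kb) and fold enrichment (ratio); the shaded span is the record and the area of a point follows its fragments. The 12 summits in the record and the 6 just past it stand between folds of 3.46 and 7.01.

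Counted by the nearest protein-coding gene, the 240 summits fell to 168 genes, of which 127 had 1 summit, 31 had 2 and 10 had 3 or more. After CADM2 came BHLHE40 with 6 summits over 47.5 kb, folds from 4.23 to 7.47 and 7 to 26 fragments. The first of these is the promoter summit described above, and the other 5 lay beyond the far end. Next, with 4 each, came CSRNP1, DUSP7, a phosphatase of the MAP kinase pathway, and TMEM43, a nuclear membrane protein. By summits inside the record, PFKFB4 had 4, and CCDC12, CSRNP1, GNAI2 and TMEM43 had 3 each.

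The highest fold at a protein-coding gene end was 13.8 (50 fragments, exact Poisson interval 37.1 to 65.9) for the peak at chr3:50298892-50299755, within reach of HYAL1, HYAL3 and NAA80. The IP6K1 peak (chr3:49786516-49786730) followed with 24 fragments (15.4 to 35.7). Then came BAP1, a deubiquitinase and tumour suppressor, and PHF7, which share a peak between them at chr3:52410130-52410498 with a fold of 11.9 and 31 fragments (21.1 to 44.0). ARF4, a GTPase of the Golgi (chr3:57597307-57597801), had a fold of 11.4 and 23 fragments, and ALS2CL (chr3:46692654-46692897) a fold of 10.9 and 28 fragments. The UQCRC1 peak (chr3:48609581-48609809) and the PBRM1 and GNL3 peak (chr3:52685457-52686085) closed the group. The counting intervals of the fragments in these peaks overlap for most pairs, so their order within the group is loose. All but ARF4 lay between 46 and 53 Mb.

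Of 25 tumour suppressors and frequently lost genes of the arm, 8 were marked (32.0%, interval 17.2 to 51.6), against 27.1% of all genes of the arm and 41.5% of all genes. Besides HYAL1, BAP1 and PBRM1, HYAL2 had a fold of 7.58 with 17 fragments. That summit lay near the far end of HYAL2, 5694 bases past its nearest start. For HYAL1 the highest summit is the one in the HYAL3 and NAA80 promoter. It lay near the far end of HYAL1, 4042 bases past its nearest start. Another HYAL1 summit, with a fold of 5.93 and 9 fragments, lay at its other end. RBM5, an RNA-binding splicing regulator, had 5.60 with 8 fragments, and SETD2, the histone H3 lysine methyltransferase, and TGFBR2, a TGF-β receptor, each had 5.42 with 7. No summit lay at an end of the other 17, such as CACNA2D2 and CTDSPL, and 4 of these had a summit inside the gene. Some of those inner summits lie at alternative starts of the promoter table. In RASSF1 a summit with a fold of 7.69 and 15 fragments lay 82 bases after one, and in SEMA3B a summit with a fold of 3.77 and 8 fragments lay 115 bases before one. With −log10 q of at least 5, 5 of the 25 were marked, against 18.0% of all genes of the arm and 27.4% of all genes. With gene starts alone, which needs a start in the promoter table, the count was 6.

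Among chromatin genes 9 of 12 were marked (75%, interval 46.8 to 91.1), against 27.1% of all genes of the arm and 41.5% of all genes. With all peaks, these shares are also the ones to set beside the lists that follow. At a −log10 q of at least 5 the shares to compare are 18.0% of the arm's genes and 27.4% of all genes. At 10 or more they are 5.61% on the arm and 14.4% on the other chromosomes. With −log10 q of at least 10 the count of chromatin genes was 4. After BAP1 and PBRM1, BRPF1, a scaffold of histone acetyltransferases, had a fold of 10.1 with 19 fragments, and SETD5 had 8.44 with 28. The folds of the other 5 ran from 5.08 for HDAC11 to 7.46 for RYBP, and KAT2B and SATB1 were not marked. Of 18 signalling genes 11 were marked (61.1%, 38.6 to 79.7), led by IP6K1, RHOA with a fold of 9.87 and 17 fragments, IP6K2 with 8.28 and 12, and TGFBR2, and ACVR2B and IRAK2 were not. Their median fold was 4.80, below the 6.46 of all marked genes of the arm, and 4 were marked with −log10 q of at least 5 and 2 with at least 10. CISH and MAPKAPK3 were marked by the same summit, with a fold of 3.71 and 6 fragments, so the 11 are not independent. Of 13 genes of DNA repair and the cell cycle, 7 were marked (53.8%, 29.1 to 76.8), and 1 was with −log10 q of at least 10. Besides BAP1 these included PARP3 with a fold of 7.5, ATRIP, the partner of the ATR kinase, with 7.05, TREX1 with 6.49, CDC25A, a phosphatase that opens cell cycle transitions, with 5.56, and OGG1 with 5.20, while FANCD2 and RAD18 had none. Of 5 ribosomal protein genes 1 was marked (20%, 3.62 to 62.4), RPSA with a fold of 7.01, and RPL14 and RPL15 had none. These lists lie in differing parts of the arm, and the shares are descriptions.

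Of 6 Wnt pathway genes CSRNP1, once named for its induction by axin, was the 1 marked (16.7%, 3.01 to 56.4), with a fold of 5.58 and 15 fragments. That summit lay 567 bases beyond the far end of CSRNP1, 12303 bases past its nearest start. Inside CSRNP1 a summit with a fold of 5.92 and 16 fragments lay 804 bases after a start of the promoter table. CSRNP1 was not marked with a window of 500 bp. WNT7A had 1 summit inside the gene and none at an end. WNT5A, APPL1, PRICKLE2 and CTNNB1 had none. No summit lay within 100 kb of CTNNB1 (chr3:41199505-41240443). The nearest lay 722 kb away at an end of ULK4, with a fold of 5.30 and 7 fragments, and the next 746 kb away at ENTPD3-AS1. Of the 2 bHLH genes BHLHE40 was marked and MITF, the melanocyte factor, was not. In the hypoxia list BHLHE40 and P4HTM, a prolyl hydroxylase with a fold of 5.14, were marked. The P4HTM summit lay at the far end of that gene, 17487 bases past its start and 4 bases past the start of WDR6. PFKFB4, which sets fructose 2,6-bisphosphate, had 4 summits inside and none at its ends, and VHL had none. Of the 4 inside PFKFB4, 1 with a fold of 4.13 and 11 fragments lay 239 bases after a start of the promoter table.

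Of 13 matrix and adhesion genes 2 were marked (15.4%, 4.33 to 42.2), an interval that covers the shares of the arm and of all genes. CDCP1, a surface glycoprotein, had a fold of 5.42 and 7 fragments. COL7A1, the collagen of anchoring fibrils beneath squamous epithelium, had a fold of 4.07 and 22 fragments. CADM2 and CHL1 had no summit at an end. DAG1 had none either, but a summit inside it with a fold of 8.50 and 16 fragments lay 11 bases after a start of the promoter table. With gene starts alone 3 of the list were marked. Of the markers of other cell types, 0 of 12 leukocyte genes, 0 of 3 hepatocyte genes and 0 of 8 neuron and glia genes were marked. With so few genes a list, the upper limits of those shares were 24.2% for leukocytes and 32.4% for neurons and glia.

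Away from protein-coding gene ends the highest fold of the arm, 37.3 with 246 fragments over a background of 5.61, lay at chr3:75668857-75669636 in DUX4L26, a DUX4-like pseudogene, 2084 bp from FRG2C. These genes have near-identical copies elsewhere in the genome, so the place of these fragments is uncertain. The peak at chr3:48211841-48212106 had a fold of 19.6 and 34 fragments (23.5 to 47.5). It lay between genes, 11.5 kb from CAMP, the gene of an antimicrobial peptide. Next came chr3:91891210-91891495 with 11.5 and 16 fragments, the last summit before the centromere limit. The fourth, with 9.24 and 13 fragments, lay at an end of the long non-coding RNA gene ENTPD3-AS1, and the fifth, with 9.11 and 15 fragments, inside TAMM41, a mitochondrial lipid enzyme gene.

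The limit fell in a stretch with no summit. The last summit inside it, at 91891236, lay 788 kb before the limit, and the one before that, at 90542682, had a fold of 4.75 and 6 fragments. The first summit outside, at 93470571, lay 792 kb past the limit with a fold of 33.8 and 577 fragments, and the next, at 93762380, had a fold of 4.14 and 13 fragments.

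Promoter windows with a summit held E-boxes about as often as promoters at large. Motifs were searched on both strands, and matches may overlap. Of the 628 promoter windows of the arm, which can overlap, 79 held a summit (12.6%), against 23.6% of all 22199 windows. Those 22199 include none of chromosome 8. The E-box CANNTG was in 49 of the 79 (62%, interval 51.0 to 71.9), against 65.1% of all windows, counting each window once whichever strand held it. The TCF/LEF core CTTTGAT was in none of the 79, against 1.98% of all windows, and CTTTGAA was in 2 (2.53%), against 3.61%. The GC box GGGCGG was in 81.0% of the 79 (71.0 to 88.1), against 56.3% of all windows, and the CCAAT box CCAAT in 45.6%, against 34.7%. Windows with a summit outside the short arm had the GC box in 81.6% and the E-box in 57.2%. A match is a description of these letters and not a measured site.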

How the data were processed

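For CAL-27 spheres, the deposited peak list of the 1 TCF4 antibody library was used. The IgG library was not analysed here. Bowtie2 2.3.5.1, SAMtools and MACS2 2.2.7.1 with hg38 stand in the submitters' processing notes, and settings were not given in the sources used here. The deposited fold enrichment is a ratio of summit fragments to local background, each plus 1, and the −log10 p-value and −log10 q-value are the authors' caller's. The score that the authors deposited equals the −log10 q times 10, cut to a whole number. Peaks start at a −log10 q of 1.30.

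Fragments and background were solved from fold and p by the caller's forms for all 26642 peaks (within 0.001 of the −log10 p), tested on simulated data. The depth of the library was not given in the sources used here. Genes came from RefSeq (GRCh38.p14, 58961 records, 19866 protein-coding), with starts, strands and sequence from its promoter table. The promoter table has no row for the 707 protein-coding genes of chromosome 8. No genome was used, so exon, intron and UTR classes are not given. Intervals are exact Poisson for counts, Wilson for shares, order statistics for medians and conditional binomial for ratios, all at 95% and for counting error only. PCR copies of a fragment may not be independent.

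Members and lists were chosen with earlier results of these data known. Named genes are the 10 highest folds at gene ends, the 5 highest peaks elsewhere, up to 4 marked and 2 unmarked members of each list, the genes with most summits inside, all Wnt and bHLH genes, the fullest bins and longest gaps. Further names (BHLHE40, HRH1, NKTR promoters, the long genes, summits by nearest gene, further marked tumour suppressor and repair genes, CISH, MAPKAPK3, WDR6 and DAG1) were added after values were seen. Some items are not reported here. Alternatives were stricter q, other windows, starts alone, merged summits, gene-free stretches removed and high backgrounds removed. Python 3.11.15, NumPy 2.4.6, SciPy 1.17.1 and pandas 2.3.3 were used.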

Additional observations from a re-analysis of the deposited data

How the results depend on the processing

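No paired analysis was possible because each group has 1 library, and no replicate could be left out. With −log10 q of at least 5, the short arm had 1.32 summits per Mb and a ratio to the long arm of 0.297. The share at gene ends was then 58.2%, the median fold 7.11, fragments 12, background 0.812 and genes marked 18.0%. With −log10 q of at least 10 the same values were 0.388, 0.265, 61.1%, 8.85, 20, 1.12 and 5.61%. With a window of 500 bp, 43.3% of summits lay at gene ends. Without the block between 47 and 53 Mb, chosen after seeing the data, the density was 1.70 per Mb, the ratio 0.130, the share at ends 41.5%, fragments 8, background 0.609 and genes marked 18.8%. Without the CADM2 cluster (its 18 summits and 1.5 Mb), also chosen after seeing the data, the ratio away from gene ends was 0.110. The ratio of densities stayed below 1 under each alternative run. The other 25 recomputed values moved by less than their counting intervals. Of the list counts, 74 stayed within 1.5 times their value and 17 did not. Most summits hold 10 fragments or fewer, and with 1 library the spread between libraries is unknown.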
